A study of Mus musculus with 9 samples.

Results

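Endothelial identity genes are the transcripts by which the lining cells of blood vessels are recognised in whole tissue. 10 of them were followed in mouse hearts: Pecam1, Cdh5, Kdr, Flt1, Tie1, Tek, Vwf, Eng, Emcn and Nos3. They were found by symbol, as probe sets whose only gene symbol in the array's platform annotation was 1 of the 10. Each gene had 1 such probe set, so the group made up 10 of the 22180 genes with a probe set of 1 symbol. The hearts came from 2 month old mice of 3 genotypes, with 3 hearts each. The first was Col4a3-/-OPN-/-, which lacks both the alpha 3 chain of type IV collagen and osteopontin, the secreted integrin-binding glycoprotein encoded by Spp1. The second was Col4a3-/-, which lacks the collagen chain only and models the human Alport syndrome, a basement membrane disease that chiefly affects the kidney. The last was wild type. Both mutant genotypes therefore share the collagen deletion, and the labels used here name no strain, sex or breeding scheme. The series title places the comparison in heart failure with preserved ejection fraction, with osteopontin and mitochondria as its subject.

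Endothelial cells hold their barrier together with the cadherin encoded by Cdh5 and with PECAM1, which meet between neighbouring cells. Their growth and survival depend on VEGF, which signals through KDR, while FLT1 binds the same ligand tightly, signals weakly and limits how much reaches KDR. Angiopoietins act through the receptor TEK and its partner TIE1 to keep vessels quiescent. Endoglin, encoded by Eng, is a co-receptor for BMP9 and BMP10, and NOS3 makes the nitric oxide that relaxes the surrounding smooth muscle. In the heart these cells are numerous, since a dense capillary bed runs between the cardiomyocytes. The sample titles name the heart and do not say which part of it was taken. The signals come from mixed tissue, where fewer endothelial cells and less RNA per endothelial cell cannot be told apart.

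Values are log2 signals, given for the hearts of a genotype in the order of their replicate numbers, and a difference of 1 stands for a ratio of 2 in signal. The 9 arrays had medians between 5.18 and 5.24, and Pearson's r between arrays was 0.936 to 0.986 over 36 pairs and the 13650 tested probe sets, which lay above a mean signal of 5.21. All 10 endothelial genes lay above that level in every heart, and so did all 12 cardiomyocyte markers. Col4a3-/- replicate 3 stood apart, with a mean r of 0.943 with the other 8 arrays, against 0.965 to 0.977 for the others. Its cardiomyocyte marker signals summed to 52644 on the linear scale, against 58026 to 61336 in the other 8 hearts. Col4a3-/- hearts also resembled each other least, with a mean r within the genotype of 0.942 to 0.955, against 0.980 in Col4a3-/-OPN-/- hearts and 0.984 to 0.985 in wild type hearts. Xist, which is transcribed from the inactive X chromosome of females, had a signal of 8.56 in Col4a3-/-OPN-/- replicate 2 and of 7.59 and 8.50 in Col4a3-/- replicates 1 and 3, against 4.52 to 4.77 in the other 6 hearts. The female pattern was therefore unevenly spread over the genotypes, with none among the wild type hearts.

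None of the 10 genes passed the test in any comparison. Cdh5 and Kdr had the lowest values relative to wild type, in Col4a3-/- hearts, and the members' signals varied most among Col4a3-/- hearts, as most of the array did. In Col4a3-/- against wild type hearts, 0 of 10 members had a limma adjusted p under 0.05, against 0% of all tested probe sets. At an unadjusted p under 0.05 there were 2, Cdh5 and Kdr, both lower in Col4a3-/- hearts, against 8.35% of all tested probe sets in either direction and 5.96% lower. In Col4a3-/-OPN-/- against Col4a3-/- hearts 0 of 10 passed by limma, against 0.044% of all tested probe sets. At an unadjusted p under 0.05 there was 1, Cdh5, higher in Col4a3-/-OPN-/- hearts, against 13.6% of all tested probe sets, and 0 members were without overlap between these groups, against 16.5%. In Col4a3-/-OPN-/- against wild type hearts 0 of 10 passed by limma, against 0% of all tested probe sets, and 0 had an unadjusted p under 0.05, against 3.68%. The moderated F-test across the 3 genotypes called 0 of 10, against 0.0147% of all tested probe sets. Cdh5 alone had an unadjusted F-test p under 0.05 (limma F-test adjusted p = 0.521), against 9.3% of all tested probe sets.

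**Figure D1:**
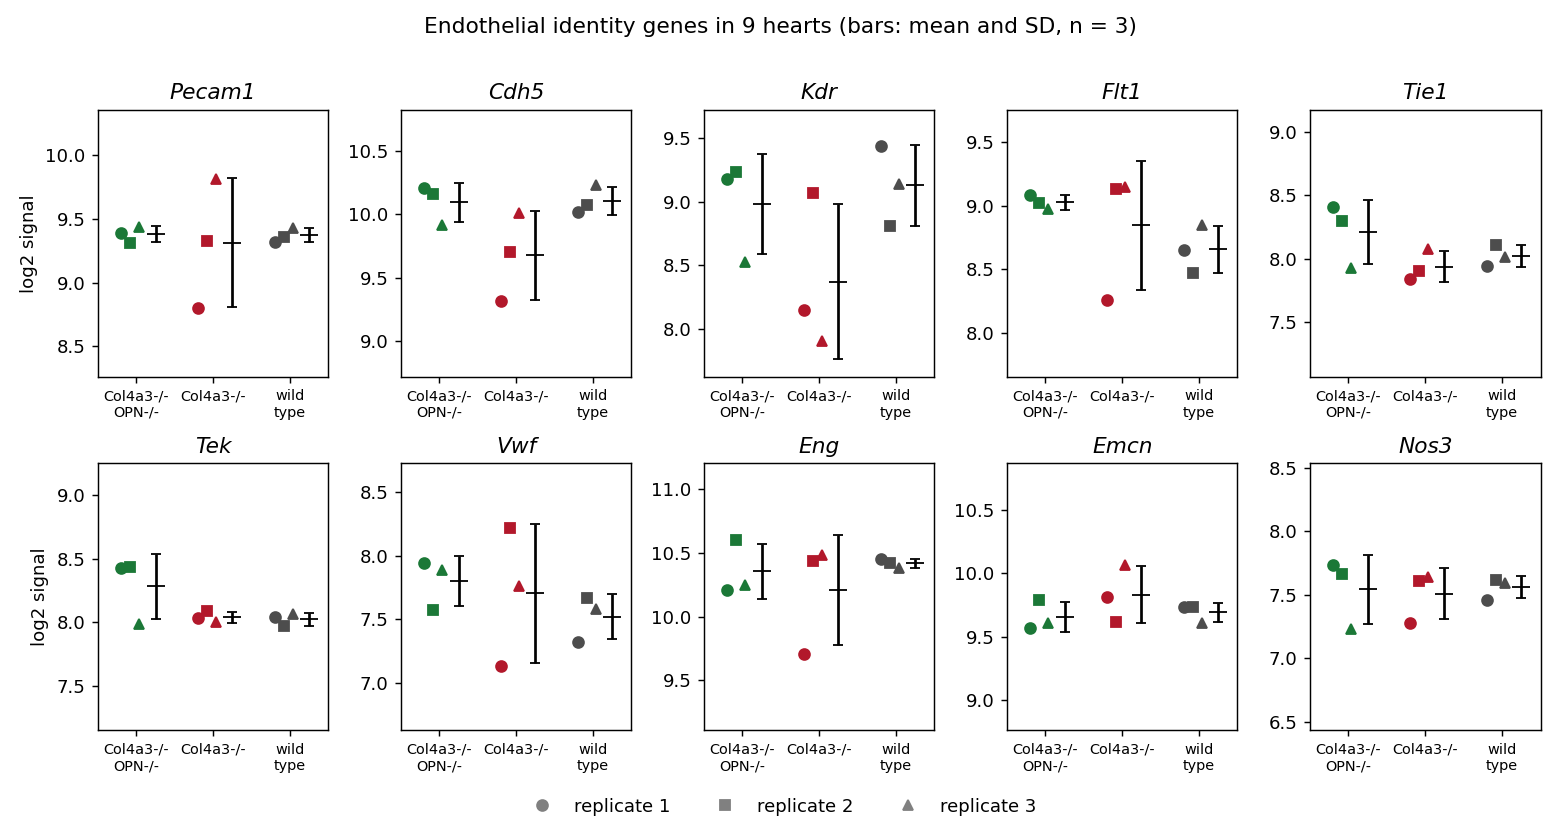
Log2 signal (vertical axes, each spanning the same number of log2 units) of the 10 endothelial genes by genotype, 1 point per heart, with the mean and SD of 3 hearts beside the points. Col4a3-/- hearts are widely scattered for Pecam1, Cdh5, Kdr, Flt1, Vwf and Eng, and the Col4a3-/- points of Cdh5 all lie below the wild type points.

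Of the junction genes, Cdh5 was lower in every Col4a3-/- heart than in any wild type heart, while Pecam1 differed mainly in its spread. Cdh5 (probe set 17504399), which encodes VE-cadherin, the adhesion protein of endothelial adherens junctions, had signals of 10.21, 10.16 and 9.92 in Col4a3-/-OPN-/- hearts, 9.32, 9.71 and 10.01 in Col4a3-/- hearts, and 10.02, 10.07 and 10.23 in wild type hearts. The Col4a3-/- and wild type groups did not overlap, with the highest Col4a3-/- heart just below the lowest wild type heart, while Col4a3-/-OPN-/- hearts overlapped both. Cdh5 was 1 of 10 members without overlap in this comparison, against 12.5% of all tested probe sets. The Col4a3-/- minus wild type difference was -0.43 (SE 0.17, 95% interval -0.80 to -0.06), a ratio of 0.744, with a limma p of 0.0270 and an adjusted p of 0.542. The Col4a3-/-OPN-/- minus Col4a3-/- difference was 0.42 (SE 0.17, 95% interval 0.05 to 0.78), with a limma p of 0.0304 and an adjusted p of 0.328. These comparisons share the Col4a3-/- hearts, so a low Col4a3-/- mean enters both. Col4a3-/- replicate 1 carried much of the difference: without it, Col4a3-/- minus wild type was -0.25 and Col4a3-/-OPN-/- minus Col4a3-/- 0.23. Without Col4a3-/- replicate 3 the same values were -0.59 and 0.58.

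Pecam1 (probe set 17270937), whose product is an adhesion and mechanosensing molecule at endothelial contacts that platelets and leukocytes also carry, had signals of 9.39, 9.31 and 9.44 in Col4a3-/-OPN-/- hearts, 8.80, 9.32 and 9.82 in Col4a3-/- hearts, and 9.32, 9.36 and 9.43 in wild type hearts. The middle Col4a3-/- heart sat among the wild type hearts, with another below and another above all 3 of them. The mean was 9.38 ± 0.06 in Col4a3-/-OPN-/- hearts, 9.31 ± 0.51 in Col4a3-/- hearts and 9.37 ± 0.06 in wild type hearts (SD, n = 3 each). The difference was -0.06 for Col4a3-/- minus wild type (95% interval -0.51 to 0.40) and 0.07 for Col4a3-/-OPN-/- minus Col4a3-/- (95% interval -0.39 to 0.52). Without Col4a3-/- replicate 1 these were 0.20 and -0.19. Among 11 other endothelial junction genes, 0 passed the test by limma in any comparison, and at an unadjusted p under 0.05 2 were lower in Col4a3-/- minus wild type and 2 higher in Col4a3-/-OPN-/- minus Col4a3-/-, where 5.96% and 8.58% of all tested probe sets were. Their median difference was -0.00 in Col4a3-/- minus wild type and 0.21 in Col4a3-/-OPN-/- minus Col4a3-/-, against -0.02 and 0.04 over all tested probe sets. Tjp1, a scaffold of tight junctions, differed by -0.44 in Col4a3-/- minus wild type (limma adjusted p = 0.498) and by 0.57 in Col4a3-/-OPN-/- minus Col4a3-/- (limma adjusted p = 0.180). Cldn5, the main endothelial claudin, differed by 0.27 and -0.54 in the same comparisons. Its signals were 6.07, 6.08 and 8.05 in Col4a3-/- hearts and 6.68, 6.42 and 6.29 in wild type hearts. Only Col4a3-/- replicate 3 was thus above the wild type hearts, and the other Col4a3-/- hearts were below them.

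The VEGF receptor genes had unlike values: Kdr was low in 3 of the mutant hearts, and Flt1 was above every wild type heart in 5. Their promoter windows are shown because these genes had the most divergent deviations within 1 heart. Each is the gene's 300-base promoter window from RefSeq's GRCm38.p6 tables, printed 5′ to 3′ on the gene's strand. The windows lie at chr5:75978406-75978705 (minus strand) for Kdr and chr5:147725962-147726261 (minus strand) for Flt1. On that strand the Kdr and Flt1 genes begin at 75979072 and 147726438, so both windows lie inside the gene, downstream of its outermost start. Capitals mark GGAA read on either strand (TTCC on the printed one), the core letters bound by ETS factors such as ERG and FLI1.
Kdr: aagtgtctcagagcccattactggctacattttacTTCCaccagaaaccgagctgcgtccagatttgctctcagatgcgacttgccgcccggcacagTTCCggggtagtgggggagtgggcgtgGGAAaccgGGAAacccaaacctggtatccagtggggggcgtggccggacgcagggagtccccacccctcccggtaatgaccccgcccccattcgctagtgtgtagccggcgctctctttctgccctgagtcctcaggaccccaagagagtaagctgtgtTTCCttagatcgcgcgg
Flt1: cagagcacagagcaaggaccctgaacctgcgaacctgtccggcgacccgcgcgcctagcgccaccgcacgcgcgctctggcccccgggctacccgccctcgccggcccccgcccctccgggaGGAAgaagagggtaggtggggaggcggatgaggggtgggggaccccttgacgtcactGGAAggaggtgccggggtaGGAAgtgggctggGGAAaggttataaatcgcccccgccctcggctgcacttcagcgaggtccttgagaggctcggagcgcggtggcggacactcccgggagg
The Kdr window held 5 such matches and the Flt1 window 4, where all 32817 promoter windows of the table had a median of 3 and 96.0% held at least 1. Of the 10 genes, 6 had a window in the table (Kdr, Flt1, Tie1, Tek, Eng and Emcn).

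Kdr (probe set 17448924), the principal signalling receptor for VEGF, had signals of 9.18, 9.24 and 8.53 in Col4a3-/-OPN-/- hearts, 8.15, 9.07 and 7.91 in Col4a3-/- hearts, and 9.44, 8.81 and 9.14 in wild type hearts. Col4a3-/- replicates 1 and 3 were the lowest of the 9 hearts, Col4a3-/-OPN-/- replicate 3 came next, and Col4a3-/- replicate 2 lay among the wild type hearts, so the groups overlapped. The Col4a3-/- minus wild type difference was -0.76 (SE 0.30, 95% interval -1.41 to -0.10), a ratio of 0.592, with a limma p of 0.0277 and an adjusted p of 0.542. The Col4a3-/-OPN-/- minus Col4a3-/- difference was 0.61 (SE 0.30, 95% interval -0.05 to 1.26, limma adjusted p = 0.407), and the Col4a3-/-OPN-/- minus wild type difference was -0.15 (95% interval -0.81 to 0.51). Leaving out Col4a3-/- replicate 3, 1 or 2 gave a Col4a3-/- minus wild type difference of -0.52, -0.64 or -1.10, the last with a limma adjusted p of 0.218. The hearts with the lowest Kdr, Col4a3-/- replicates 1 and 3, had high Xist, and Col4a3-/-OPN-/- replicate 2, with the highest Xist of all, had a Kdr signal of 9.24. No wild type heart had the female pattern, so Col4a3-/- and wild type females could not be compared. With Y-linked signal as a covariate in the limma fit, the Col4a3-/- minus wild type difference in Kdr was -0.53 (adjusted p = 0.966). Beyond that fit, the part of sex in the Kdr values was not tested.

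Flt1 (probe set 17455346), the decoy-like VEGF receptor, had signals of 9.08, 9.02 and 8.97 in Col4a3-/-OPN-/- hearts, 8.26, 9.13 and 9.15 in Col4a3-/- hearts, and 8.65, 8.47 and 8.84 in wild type hearts. All Col4a3-/-OPN-/- hearts were above all wild type hearts, as were Col4a3-/- replicates 2 and 3, while Col4a3-/- replicate 1 was the lowest of the 9. The Col4a3-/-OPN-/- minus wild type difference was 0.37 (SE 0.22, 95% interval -0.11 to 0.85, limma adjusted p = 0.999). It was the 1 member of 10 without overlap in that comparison, against 13.2% of all tested probe sets. The Col4a3-/- minus wild type difference was 0.19 (95% interval -0.29 to 0.67, limma adjusted p = 0.837). Leaving out Col4a3-/- replicate 1 gave 0.48. The deviation of Kdr from its wild type mean, less that of Flt1, was -0.38, -0.26 and -0.92 in Col4a3-/-OPN-/- hearts, -0.59, -0.54 and -1.72 in Col4a3-/- hearts, and 0.32, -0.14 and -0.18 in wild type hearts. Every mutant heart was thus lower than every wild type heart in this contrast, which was formed after the values had been seen and was not tested.

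The genes for VEGF ligands and co-receptors, listed together with the receptor gene Flt4, had median differences close to 0. All 8 were measured and tested, 0 passed by limma in any comparison, and 0 had an unadjusted p under 0.05. Of all tested probe sets, 8.35% had such a p in Col4a3-/- minus wild type. The share was 13.6% in Col4a3-/-OPN-/- minus Col4a3-/- and 3.68% in Col4a3-/-OPN-/- minus wild type. The median difference of the 8 genes was 0.00 in Col4a3-/- minus wild type and 0.04 in Col4a3-/-OPN-/- minus Col4a3-/-. The extremes in Col4a3-/- minus wild type were Vegfb, a ligand of FLT1, at -0.18, and Vegfd, a ligand better known for lymphatic growth, at 0.43. Vegfd had signals of 6.17, 7.64 and 6.30 in Col4a3-/- hearts, against 6.01 to 6.50 in wild type hearts. Only Col4a3-/- replicate 2 was thus above the wild type hearts.

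Tie1 and Tek were highest in the same pair of Col4a3-/-OPN-/- hearts and lay close to wild type in Col4a3-/- hearts. Their windows lie at chr4:118489800-118490099 (minus strand) for Tie1 and chr4:94739039-94739338 (plus strand) for Tek, with the same letters in capitals. The Tie1 gene begins at 118489849 and the Tek gene at 94739086, so most of the Tek window lies inside the gene. Both windows are shown because these partner receptors had like values in the hearts but unlike windows.
Tie1: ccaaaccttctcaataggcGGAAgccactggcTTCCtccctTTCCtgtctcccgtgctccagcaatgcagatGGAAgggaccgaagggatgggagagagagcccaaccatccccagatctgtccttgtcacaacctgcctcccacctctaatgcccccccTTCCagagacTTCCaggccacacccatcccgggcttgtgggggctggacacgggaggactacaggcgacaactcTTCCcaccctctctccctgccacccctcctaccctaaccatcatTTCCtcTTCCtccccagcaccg
Tek: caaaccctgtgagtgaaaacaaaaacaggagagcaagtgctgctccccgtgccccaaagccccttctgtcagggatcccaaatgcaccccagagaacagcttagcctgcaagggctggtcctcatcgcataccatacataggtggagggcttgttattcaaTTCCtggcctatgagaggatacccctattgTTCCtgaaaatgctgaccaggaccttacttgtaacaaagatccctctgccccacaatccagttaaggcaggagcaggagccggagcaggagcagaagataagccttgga
The Tie1 window held 9 matches, the most of the 6 windows found for the group, while the Tek window held 2. At least 9 matches were held by 519 windows or 1.58% of the table. CCGGAAGT, a longer consensus of ETS factors, occurred on either strand in 0 of the 6 windows, against 3.9% of all windows. GATAA, the core of GATA factor motifs, occurred on either strand in 2 of the 6 windows found for the group (Tek and Emcn), against 25.4% of all windows, and CACCC, bound by KLF factors, in 5 of 6, against 57.5%.

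Tek (probe set 17415469), the angiopoietin receptor, had signals of 8.43, 8.43 and 7.99 in Col4a3-/-OPN-/- hearts, 8.03, 8.09 and 8.004 in Col4a3-/- hearts, and 8.04, 7.97 and 8.06 in wild type hearts. Col4a3-/-OPN-/- replicates 1 and 2 were above the other 7 hearts, which lay within a narrow band, and Col4a3-/-OPN-/- replicate 3 was inside that band. Tie1 (probe set 17429206), an orphan receptor that modulates TEK, had signals of 8.41, 8.30 and 7.93 in Col4a3-/-OPN-/- hearts, 7.84, 7.90 and 8.07 in Col4a3-/- hearts, and 7.94, 8.11 and 8.01 in wild type hearts. The same Col4a3-/-OPN-/- hearts were the highest, and the groups overlapped. For Tek the difference was 0.24 in Col4a3-/-OPN-/- minus Col4a3-/- (95% interval -0.07 to 0.56, limma adjusted p = 0.492) and 0.26 in Col4a3-/-OPN-/- minus wild type (95% interval -0.06 to 0.57, limma adjusted p = 0.999). For Tie1 it was 0.27 in Col4a3-/-OPN-/- minus Col4a3-/- (95% interval -0.06 to 0.60, limma adjusted p = 0.457) and 0.19 in Col4a3-/-OPN-/- minus wild type. Without Col4a3-/-OPN-/- replicate 3, the Col4a3-/-OPN-/- minus Col4a3-/- difference was 0.39 for Tek and 0.41 for Tie1, with limma adjusted p-values of 0.346 and 0.355.

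Of 5 further angiopoietin and Tie pathway genes, 4 were tested and 0 passed by limma in any comparison. At an unadjusted p under 0.05, 1 was lower and 1 higher in Col4a3-/- minus wild type, against 5.96% and 2.39% of all tested probe sets, and 2 were higher (Ptprb and Angpt1) and 1 lower (Dok2) in Col4a3-/-OPN-/- minus Col4a3-/-, against 8.58% and 5.03%. Ptprb, the phosphatase that restrains TEK and associates with VE-cadherin, had signals of 9.30, 9.004 and 9.04 in Col4a3-/-OPN-/- hearts, 8.20, 8.76 and 8.21 in Col4a3-/- hearts, and 8.87, 8.80 and 9.11 in wild type hearts. All Col4a3-/- hearts were below all other hearts. The difference was -0.54 in Col4a3-/- minus wild type (limma adjusted p = 0.490) and 0.73 in Col4a3-/-OPN-/- minus Col4a3-/- (limma adjusted p = 0.156). Angpt1, the activating ligand of TEK, is made mainly by mural and other perivascular cells. Its difference was -0.43 in Col4a3-/- minus wild type (limma adjusted p = 0.673) and 0.76 in Col4a3-/-OPN-/- minus Col4a3-/- (limma adjusted p = 0.272). Its signals were 7.90, 7.84 and 7.08 in Col4a3-/- hearts and 7.68, 8.21 and 8.23 in wild type hearts. Only Col4a3-/- replicate 3 was thus below the wild type hearts, and the other Col4a3-/- hearts lay among them. Most mural cell markers were low in Col4a3-/- hearts. All 7 smooth muscle markers were below every wild type heart in each Col4a3-/- heart, where 7.9% of all tested probe sets were. The linear signals of the 7 summed to 2803 to 3141 in Col4a3-/-OPN-/- hearts, 1544 to 2497 in Col4a3-/- hearts and 3395 to 4242 in wild type hearts. The 8 pericyte markers summed to 5703 to 6679 in Col4a3-/-OPN-/- hearts, 4937 to 5175 in Col4a3-/- hearts and 5869 to 6217 in wild type hearts. In Col4a3-/- replicates 1, 2 and 3, 4, 5 and 7 of them were below every wild type heart. The shares of all tested probe sets were 35%, 33.1% and 38.7%. Cspg4 and Abcc9 differed by only 0.09 and -0.02 in Col4a3-/- minus wild type. Of both lists only Myh11, a smooth muscle myosin, passed by limma, at 1.28 in Col4a3-/-OPN-/- minus Col4a3-/- (adjusted p = 0.0104). The part of the mural cells in the endothelial values was not tested.

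Eng (probe set 17369925), the co-receptor that presents BMP9 and BMP10 to ACVRL1, had signals of 10.21, 10.60 and 10.25 in Col4a3-/-OPN-/- hearts, 9.71, 10.44 and 10.48 in Col4a3-/- hearts, and 10.45, 10.42 and 10.38 in wild type hearts. A single heart, Col4a3-/- replicate 1, was far below the rest. The Col4a3-/- minus wild type difference was -0.21 (95% interval -0.63 to 0.21, limma adjusted p = 0.790) and turned to 0.04 without that heart. Of 13 endoglin pathway genes 12 were tested, and 0 passed by limma in any comparison. At an unadjusted p under 0.05, 1 was lower and 1 higher in Col4a3-/- minus wild type, against 5.96% and 2.39% of all tested probe sets. In Col4a3-/-OPN-/- minus Col4a3-/- 1 was higher, against 8.58%. Bmp10, the ligand, is made by atrial cardiomyocytes. Its signal was 9.38, 9.63 and 9.59 in Col4a3-/-OPN-/- hearts, 5.72, 9.17 and 7.40 in Col4a3-/- hearts, and 9.75, 9.78 and 9.86 in wild type hearts, a Col4a3-/- minus wild type difference of -2.36 (limma adjusted p = 0.427). Its lowest hearts, Col4a3-/- replicates 1 and 3, had all 6 atrial markers below every wild type heart, against 35% and 38.7% of all tested probe sets. Bmp10 is itself 1 of these 6 markers. The linear signals of the 6 summed to 12698 to 14228 in Col4a3-/-OPN-/- hearts, to 7412, 13663 and 8344 in Col4a3-/- hearts, and to 14769 to 16039 in wild type hearts. Acvrl1 itself differed by -0.20 in Col4a3-/- minus wild type and by 0.28 in Col4a3-/-OPN-/- minus Col4a3-/-. Whether the amount of atrial tissue bears on the endothelial values was not tested.

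Nos3 (probe set 17435282), the endothelial nitric oxide synthase, had signals of 7.73, 7.66 and 7.23 in Col4a3-/-OPN-/- hearts, 7.28, 7.61 and 7.64 in Col4a3-/- hearts, and 7.46, 7.62 and 7.59 in wild type hearts. The groups overlapped, and the genotype means lay close together. The difference was -0.05 in Col4a3-/- minus wild type (95% interval -0.41 to 0.31, limma adjusted p = 0.952) and 0.03 in Col4a3-/-OPN-/- minus Col4a3-/- (95% interval -0.33 to 0.40, limma adjusted p = 0.947). Among 13 other measured genes of the nitric oxide pathway 11 were tested, and 0 passed by limma. At an unadjusted p under 0.05, 1 was lower in Col4a3-/- minus wild type, against 5.96% of all tested probe sets. In Col4a3-/-OPN-/- minus Col4a3-/- 3 were higher and 1 lower, against 8.58% and 5.03%. In Col4a3-/-OPN-/- minus wild type 1 was higher, against 1.89%. Gucy1a1, a subunit of the nitric oxide receptor that smooth muscle and pericytes carry, differed by -0.49 in Col4a3-/- minus wild type (limma adjusted p = 0.507) and by 0.90 in Col4a3-/-OPN-/- minus Col4a3-/- (limma adjusted p = 0.132). Cav1, the caveolar protein that holds NOS3 inactive, differed by -0.48 and 0.46 in the same comparisons.

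Vwf (probe set 17463205), which encodes the platelet-binding factor stored in endothelial granules, had signals of 7.94, 7.57 and 7.89 in Col4a3-/-OPN-/- hearts, 7.13, 8.22 and 7.76 in Col4a3-/- hearts, and 7.32, 7.67 and 7.58 in wild type hearts. Col4a3-/- hearts held both the highest and the lowest value. The difference was 0.18 in Col4a3-/- minus wild type (95% interval -0.35 to 0.71) and 0.28 in Col4a3-/-OPN-/- minus wild type (95% interval -0.25 to 0.81). The 3 hearts with the highest Vwf, Col4a3-/- replicate 2 and Col4a3-/-OPN-/- replicates 1 and 3, were those with high Scgb1a1, an airway secretory gene, at 12.21, 9.81 and 9.52, against 4.54 to 6.10 in the other 6 hearts. The 9 lung markers, Scgb1a1 included, summed on the linear scale to 1213, 286 and 1038 in Col4a3-/-OPN-/- hearts, to 282, 5352 and 346 in Col4a3-/- hearts, and to 315 to 390 in wild type hearts. The 8 without Scgb1a1 summed to 315, 256 and 305 in Col4a3-/-OPN-/- hearts, to 259, 621 and 322 in Col4a3-/- hearts, and to 274 to 321 in wild type hearts. Of the 9, 7 were above and 0 below every wild type heart in Col4a3-/- replicate 2, against 26% and 33.1% of all tested probe sets. In Col4a3-/-OPN-/- replicate 1 there were 3 above and 3 below, against 35.1% and 25.1%. In Col4a3-/-OPN-/- replicate 3 there were 4 above and 3 below, against 27.4% each. In Col4a3-/- replicate 2, 8 of the 9 were above 5.21, and in wild type hearts 3 or 4 were. The same Col4a3-/- heart was high for fat markers: 6 of 7 were above every wild type heart, against 26% of all tested probe sets. Ucp1 of brown fat had a signal of 11.06 there. The linear signals of the 7 fat markers summed to 719 to 994 in Col4a3-/-OPN-/- hearts, to 626, 4043 and 642 in Col4a3-/- hearts, and to 921 to 1309 in wild type hearts. Platelets also carry Vwf and Pecam1 products, and the 7 measured platelet markers summed to 431 to 518 in Col4a3-/-OPN-/- hearts, 337 to 375 in Col4a3-/- hearts and 301 to 369 in wild type hearts, with Ppbp passing by limma in Col4a3-/-OPN-/- minus Col4a3-/-, at 1.56 (adjusted p = 0.0258). The 5 tested platelet markers had a median of -0.02 in Col4a3-/-OPN-/- minus Col4a3-/-, with 3 negative, and without Ppbp the measured ones summed to 345 to 389 in Col4a3-/-OPN-/- hearts, 307 to 333 in Col4a3-/- hearts and 264 to 323 in wild type hearts. The part of lung tissue, fat or platelets in the Vwf values was not tested. Without Col4a3-/- replicate 2 the Col4a3-/- minus wild type difference in Vwf was -0.08.

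Emcn (probe set 17402981), the sialomucin of capillary and venous endothelium, had signals of 9.57, 9.79 and 9.61 in Col4a3-/-OPN-/- hearts, 9.81, 9.61 and 10.06 in Col4a3-/- hearts, and 9.74, 9.73 and 9.61 in wild type hearts. Like Tek, it was not below the wild type hearts in Col4a3-/- replicate 1, and of the 10 it was the only member with a negative Col4a3-/-OPN-/- minus Col4a3-/- difference (-0.17, 95% interval -0.47 to 0.12, limma adjusted p = 0.596). The Col4a3-/- minus wild type difference was 0.14 (95% interval -0.15 to 0.43, limma adjusted p = 0.800).

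**Figure D2:**
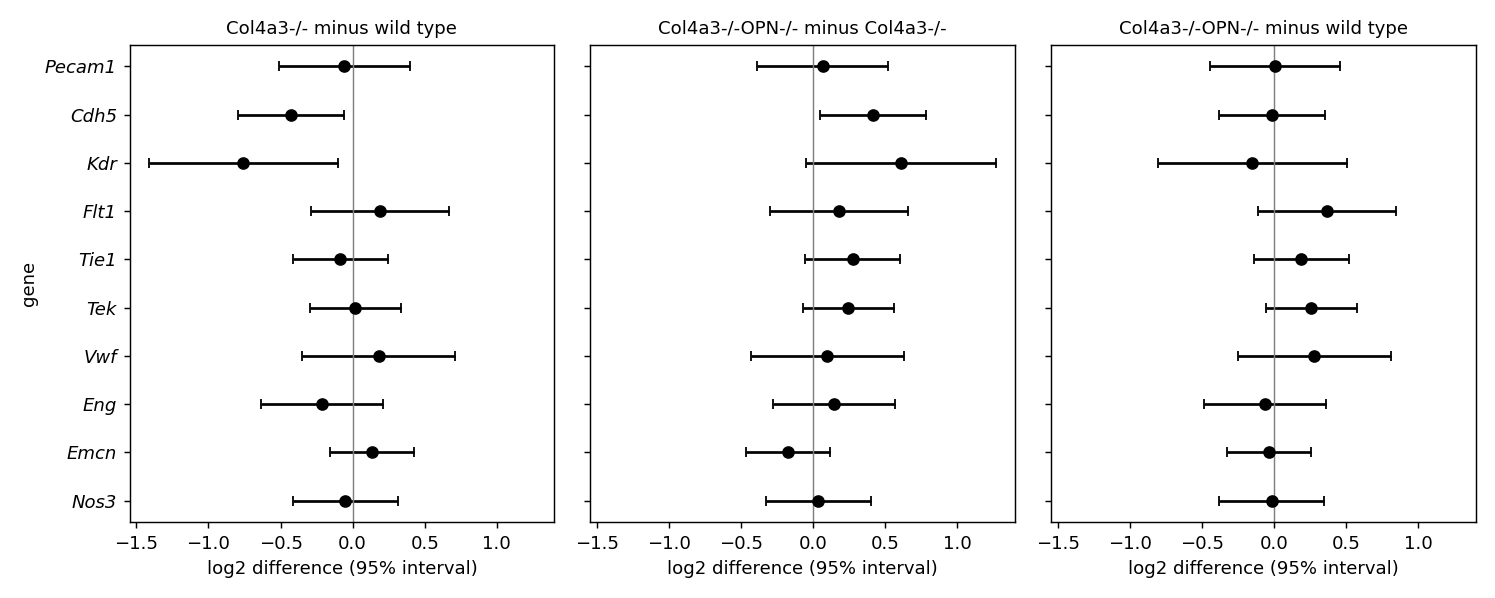
Log2 differences (horizontal axes) of the 10 genes (vertical axis) with 95% intervals from the limma fit with 1 panel for each of the 3 comparisons. Intervals leave 0 outside for Cdh5 and Kdr in the panel of Col4a3-/- against wild type and for Cdh5 in that of Col4a3-/-OPN-/- against Col4a3-/-, before adjustment over the 13650 probe sets.

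The median member difference was -0.05 in Col4a3-/- minus wild type, against -0.02 over all tested probe sets, with 6 of 10 negative, against 55%. In Col4a3-/-OPN-/- minus Col4a3-/- it was 0.16, against 0.04 over all tested probe sets, with 1 of 10 negative, against 42.3%. In Col4a3-/-OPN-/- minus wild type it was -0.00, against 0.01, with 5 of 10 negative, against 46.9%. The positive median of Col4a3-/-OPN-/- minus Col4a3-/- rested on Col4a3-/- replicate 1, without which it was -0.09. Without Col4a3-/- replicate 3 it was 0.30. With 1 heart left out at a time, the median ranged from -0.13 to 0.05 in Col4a3-/- minus wild type, turning positive without Col4a3-/- replicate 1, and from -0.00 to 0.11 in Col4a3-/-OPN-/- minus wild type, the highest without Col4a3-/-OPN-/- replicate 3. The narrowest 95% interval of a member in Col4a3-/- minus wild type ran from -0.15 to 0.43 (Emcn) and the widest from -1.41 to -0.10 (Kdr), so the number of hearts may leave sizeable differences undetected.

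Heart by heart, Col4a3-/- replicate 1 was low for most of the genes and Col4a3-/- replicate 3 combined high and low ones. Col4a3-/- replicate 1 was the lowest of the 9 hearts for 6 members (Pecam1, Cdh5, Flt1, Tie1, Vwf and Eng), where 18.5% of all tested probe sets had their lowest value. In this heart 8 of 10 members were below every wild type heart, against 35% of all tested probe sets, and the median deviation from the wild type mean was -0.39. Col4a3-/- replicate 2 had a median deviation of -0.01, with 2 members below and 3 above all wild type hearts, against 33.1% and 26% of all tested probe sets. Col4a3-/- replicate 3 had a median deviation of 0.07, with 6 members above and 2 below, against 33.7% and 38.7%. It was the highest heart for Pecam1, Flt1 and Emcn, against 21.3% of all tested probe sets, and the lowest for Kdr, against 26.1%. Kdr was 1.72 apart from Flt1 there in deviation from the wild type mean, the widest span in any heart. The median deviation was 0.14, 0.10 and -0.09 in Col4a3-/-OPN-/- hearts.

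**Figure D3:**
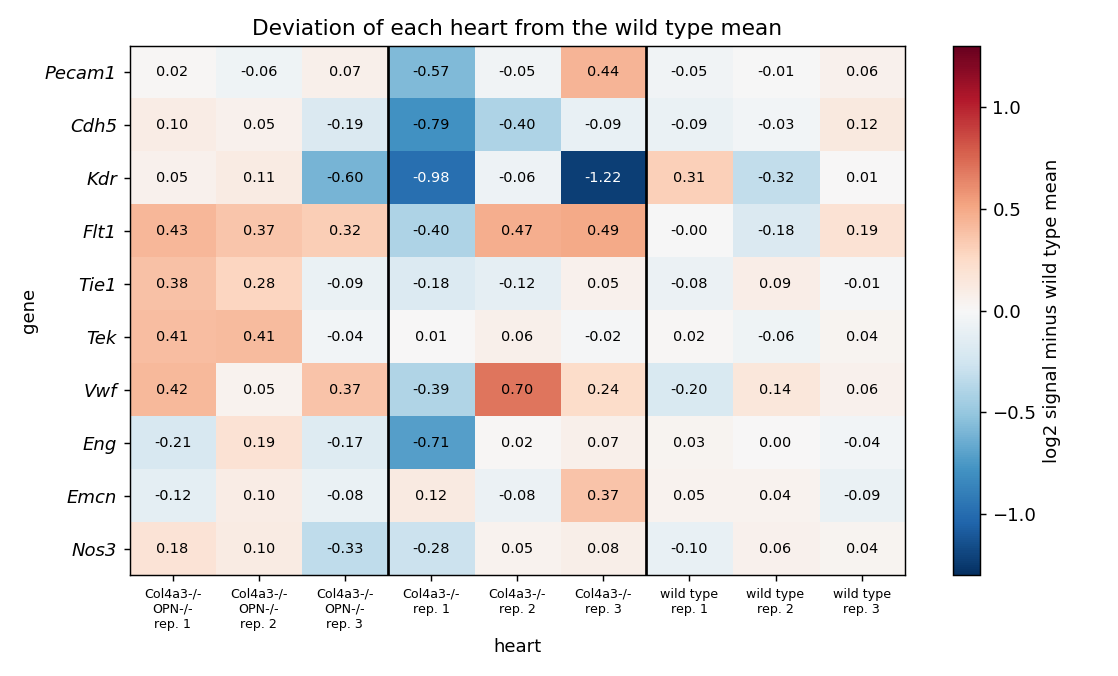
Log2 signal of each heart minus the wild type mean (colour and number in each cell) for the 10 genes (rows) in the 9 hearts (columns). Col4a3-/- replicate 1 is low for 8 genes, and Col4a3-/- replicate 3 pairs the lowest Kdr cell, -1.22, with raised Pecam1, Flt1 and Emcn.

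The spread within a genotype differed in the same way. The SD was largest in Col4a3-/- hearts for 7 of 10 members (Pecam1, Cdh5, Kdr, Flt1, Vwf, Eng and Emcn), against 60.9% of all tested probe sets. It was largest in Col4a3-/-OPN-/- hearts for Tie1, Tek and Nos3, against 21.7%, and in wild type hearts for 0 of 10, against 17.4%. The median SD of the members was 0.21 in Col4a3-/-OPN-/- hearts, 0.39 in Col4a3-/- hearts and 0.0852 in wild type hearts, where all tested probe sets had median SDs of 0.14, 0.21 and 0.12. The limma fit gives each gene 1 spread for all genotypes, so its intervals are too narrow for Col4a3-/- hearts and too wide for wild type hearts where the spreads are this unequal.

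**Figure D4:**
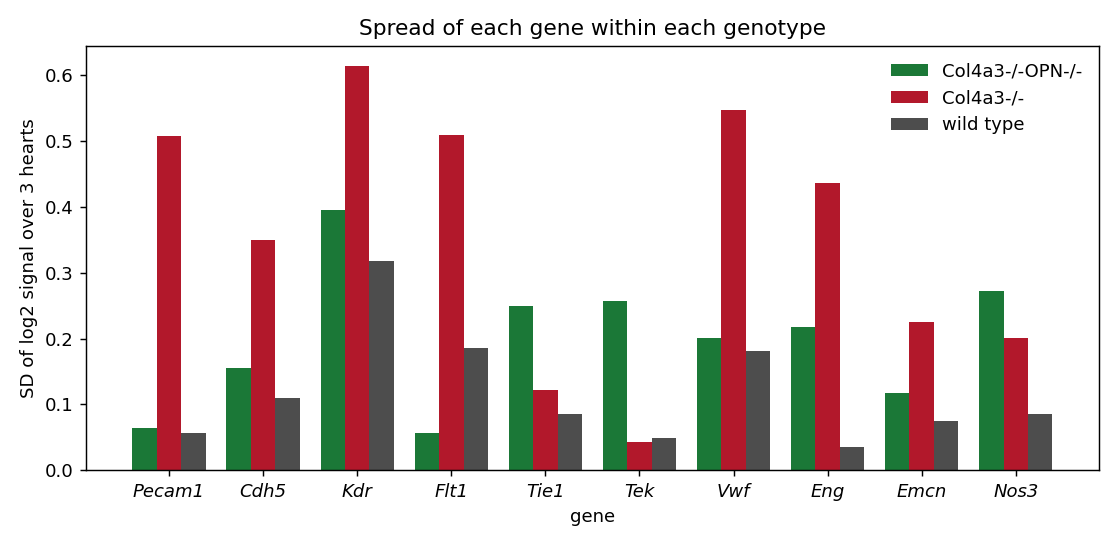
SD of the log2 signal over 3 hearts (vertical axis, from 0) for each gene and genotype. Col4a3-/- bars are the tallest for 7 of the 10 genes, while Tie1, Tek and Nos3 are most variable in Col4a3-/-OPN-/- hearts.

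Other endothelial genes mostly had negative differences in Col4a3-/- against wild type hearts, without any passing the test. Of 27 further pan-endothelial genes 22 were negative in Col4a3-/- minus wild type, against 55% of all tested probe sets, with a median of -0.19. For Col4a3-/-OPN-/- minus Col4a3-/- 5 were negative, against 42.3%, with a median of 0.27. By limma 0 of 27 passed in any comparison. At an unadjusted p under 0.05, 4 were lower in Col4a3-/- minus wild type (S1pr1, Ptprb, Erg and Ushbp1), against 5.96% of all tested probe sets, and 6 were higher and 2 lower in Col4a3-/-OPN-/- minus Col4a3-/-, against 8.58% and 5.03%. Erg, the ETS factor that maintains endothelial identity, had signals of 7.76, 8.07 and 7.52 in Col4a3-/-OPN-/- hearts, 7.20, 7.44 and 7.64 in Col4a3-/- hearts, and 7.93, 7.72 and 7.80 in wild type hearts. All Col4a3-/- hearts were below all wild type hearts (-0.39, limma adjusted p = 0.576). S1pr1, a receptor that stabilises endothelial junctions, differed by -0.43 (limma adjusted p = 0.559). Col4a3-/- replicate 1 had 17 of the 27 genes below every wild type heart, against 35% of all tested probe sets, Col4a3-/- replicate 3 had 16, against 38.7%, and Col4a3-/- replicate 2 had 10, against 33.1%.

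Among 17 endothelial transcription factors the median was -0.12 in Col4a3-/- minus wild type and 0.25 in Col4a3-/-OPN-/- minus Col4a3-/-, and 0 passed by limma in any comparison. Erg, Sox18, Tal1 and Lmo2 were also among the further pan-endothelial genes, so their values enter both lists. At an unadjusted p under 0.05, 1 was lower and 1 higher in Col4a3-/- minus wild type, against 5.96% and 2.39% of all tested probe sets. For Col4a3-/-OPN-/- minus Col4a3-/- 2 were higher and 1 lower, against 8.58% and 5.03%, and in Col4a3-/-OPN-/- minus wild type 1 was higher (Sox17), against 1.89%. The extremes in Col4a3-/- minus wild type were Sox18, a factor of vessel development, at -0.68 (limma adjusted p = 0.692), and Klf2, which shear stress induces, at 0.59 (limma adjusted p = 0.580). Sox18 had signals of 7.65, 8.26 and 6.26 in Col4a3-/- hearts, against 7.98 to 8.14 in wild type hearts. Col4a3-/- replicate 2 was thus above every wild type heart, and replicate 3 was far below.

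By vessel type, genes of capillaries and arteries had negative medians in Col4a3-/- hearts and lymphatic genes a positive one. All of these lists had 0 genes passing by limma in every comparison. Tested were 12 capillary, 10 arterial, 6 lymphatic, 6 venous and 5 endocardial genes. Tcf15 and Meox2 of the capillary list and Sox17 of the arterial list were also among the transcription factors. For Col4a3-/- minus wild type at an unadjusted p under 0.05, 3 capillary, 1 arterial and 1 endocardial gene were lower, against 5.96% of all tested probe sets. In the same comparison 2 lymphatic genes and 1 venous gene were higher, against 2.39%. For Col4a3-/-OPN-/- minus Col4a3-/-, 2 capillary, 3 arterial, 2 venous and 1 endocardial gene were higher, against 8.58%. For Col4a3-/-OPN-/- minus wild type, 2 arterial and 1 lymphatic gene were higher, against 1.89%. The 12 capillary genes had a median of -0.26 in Col4a3-/- minus wild type, with 11 negative, and of 0.31 in Col4a3-/-OPN-/- minus Col4a3-/-. Over all tested probe sets these medians were -0.02 and 0.04, with 55% and 42.3% negative. Cd300lg, a capillary surface molecule, had signals of 8.98, 9.07 and 9.45 in Col4a3-/-OPN-/- hearts, 8.46, 8.30 and 8.49 in Col4a3-/- hearts, and 8.91, 9.27 and 9.12 in wild type hearts. Its Col4a3-/- hearts were below all others, with a Col4a3-/- minus wild type difference of -0.68 (limma adjusted p = 0.398) and a Col4a3-/-OPN-/- minus Col4a3-/- difference of 0.75 (limma adjusted p = 0.141). Car4, the carbonic anhydrase on capillary surfaces, differed by -0.77 and 0.78 in the same comparisons. The 10 arterial genes had a median of -0.23 in Col4a3-/- minus wild type, with 9 negative, and of 0.30 in Col4a3-/-OPN-/- minus Col4a3-/-, with 10 positive. Their median deviation from the wild type mean was -0.14, -0.10 and -0.47 in Col4a3-/- hearts. The 6 lymphatic genes had a median of 0.32 in Col4a3-/- minus wild type, with Lyve1, the hyaluronan receptor of lymphatic endothelium and some macrophages, at 0.49 (limma adjusted p = 0.504). The median deviation of the 6 was 0.01, 0.24 and 0.70 in Col4a3-/- hearts. Both lists thus deviated most in Col4a3-/- replicate 3. Lyve1 in Col4a3-/- replicate 1, at 9.42, lay among the wild type hearts, at 9.20 to 9.49. The 6 tested venous genes had a median of 0.12 in Col4a3-/- minus wild type and the 5 tested endocardial genes one of 0.02.

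Endothelial activation genes were high in Col4a3-/- replicate 3 and, in part, in Col4a3-/- replicate 2. In Col4a3-/- replicate 3 all 12 were above every wild type heart, against 33.7% of all tested probe sets. Of the 12, 2 were below 5.21 even in that heart and were not tested. Sele, the endothelial selectin induced by cytokines, had a signal of 8.26 there, against 5.13 to 5.53 in the other 8 hearts. Icam1 and Selp, which recruit leukocytes, had signals of 9.63 and 8.58 in that heart. The 12 linear signals summed to 2016 to 3183 in Col4a3-/-OPN-/- hearts, to 1859, 4979 and 9336 in Col4a3-/- hearts, and to 1837 to 2378 in wild type hearts. In Col4a3-/- replicate 2, 6 of the 12 were above every wild type heart, against 26% of all tested probe sets. Ccl2, a monocyte attractant, was highest in that heart, at 6.81. Much of the sum was Serpina3n, a secreted protease inhibitor, with signals of 10.84, 9.48 and 10.58 in Col4a3-/-OPN-/- hearts, 9.72, 11.81 and 12.39 in Col4a3-/- hearts, and 10.25, 9.14 and 9.78 in wild type hearts. Without it the other 11 summed to 1194 to 1348 in Col4a3-/-OPN-/- hearts, to 1018, 1380 and 3969 in Col4a3-/- hearts, and to 1125 to 1274 in wild type hearts. The 10 tested genes had a median of 0.84 in Col4a3-/- minus wild type, against -0.02 over all tested probe sets, and 0 passed by limma. At an unadjusted p under 0.05, 2 were higher, against 2.39% of all tested probe sets, and Sele had a limma adjusted p of 0.685. The Col4a3-/-OPN-/- minus Col4a3-/- median was -0.90, against 0.04, with 9 of 10 negative, against 42.3%, and 0 passing by limma. In that comparison 1 was lower at an unadjusted p under 0.05, against 5.03%. Col4a3-/- replicate 3 was the heart with the lowest Kdr and with high Pecam1, Flt1 and Emcn, and the part of the activation genes in those values was not tested.

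The genes whose signal most resembled the per-heart median of the 10 members over the 9 hearts were Prob1 (r = 0.974, rho = 0.90), Nfic (r = 0.972, rho = 0.867), Cgnl1 (r = 0.962, rho = 0.95), Ino80 (r = 0.954, rho = 0.817) and Usp36 (r = 0.950, rho = 0.80). They were the 5 with the highest Pearson's r among all tested genes outside the group, and both values of a point come from the same array. The member median, each gene centred on its own mean, was -0.55 in Col4a3-/- replicate 1 and between -0.10 and 0.24 elsewhere. That heart therefore weighs heavily in r. Cgnl1, which is also in the list of junction genes, had its lowest signal there, at 6.21.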

How the data were processed

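RNA of 9 hearts was measured on 9 arrays, 1 heart each. The deposited values are log2 signals made with RMA, per the submitters' processing notes. RMA subtracts background, equalises the arrays and summarises each probe set, so absolute amounts cannot be read from it. The labels name a small-RNA labelling kit, while the platform annotation is of a gene array, so how the RNA was labelled is uncertain. Of 33793 probe sets 23521 had 1 symbol, 23328 of these had their identifier in RefSeq's GRCm38.p6 table, and 13650 (13085 genes) with a mean above 5.21, the median of all, were tested. One limma fit (limma 3.58.1, R 4.3.3, lmFit and eBayes with trend) over the 9 arrays gave two-sided p-values, adjusted by Benjamini-Hochberg over the 13650, with 0.05 as threshold. An exact permutation test of 3 against 3 hearts cannot fall below 0.1. Values after ± are SDs. Precision rests on the number of arrays, with a median standard error of 0.15. The members and lists were chosen with earlier results of these data known. Some genes are in more than 1 list, so the counts and medians of such lists are not independent. Of the pan-endothelial genes, Erg, Sox18, Tal1 and Lmo2 are also transcription factors. Ptprb is also in the angiopoietin list, and Cldn5 and Esam are also junction genes. Of the factors, Tcf15 and Meox2 are also capillary genes and Sox17 an arterial one. Flt4 is in the VEGF and lymphatic lists, and Vcam1 and Selp in the venous and activation lists. The genes named are all members, up to 2 highest and 2 lowest genes of a list in a comparison, genes of a list past the threshold, and the 5 genes most like the member median. Erg, S1pr1, Ushbp1 and Icam1 fall outside that rule and were chosen after their values were seen. Genes named only for being in more than 1 list also fall outside it. Linear sums add 2 to the power of each log2 signal. Lists with fewer tested than measured genes lost those below 5.21.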

Additional observations from a re-analysis of the deposited data

How the results depend on the processing

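Each member's difference in each comparison was recomputed under 20 other settings, and no member passed the threshold in any comparison under any of them, nor in the F-test under the 19 it was run with (it was not run with only the arrays compared). Of 600 values, 567 kept their direction and 33 changed sign, 24 of them with an array left out. All sign changes were of differences with a limma adjusted p far above the threshold, and the cause was not tested. With renewed quantile normalization the value became 0.0380 for Cdh5 in Col4a3-/-OPN-/- minus wild type and -0.0266 for Nos3 in Col4a3-/-OPN-/- minus Col4a3-/-. With centring of each array it became 0.0112 for Cdh5 and 0.00715 for Nos3 in Col4a3-/-OPN-/- minus wild type and -0.00460 for Tek in Col4a3-/- minus wild type. With Y-linked signal as covariate it became -0.0496 for Emcn and -0.0415 for Tek in Col4a3-/- minus wild type and -0.12 for Vwf in Col4a3-/-OPN-/- minus Col4a3-/-, which array weights gave as -0.10. With 1 heart left out at a time, Col4a3-/- minus wild type ranged from -0.35 to 0.0416 for Eng, -0.12 to 0.0650 for Nos3, -0.31 to 0.20 for Pecam1, -0.0102 to 0.0370 for Tek and -0.0754 to 0.47 for Vwf. Likewise Col4a3-/-OPN-/- minus Col4a3-/- ranged from -0.11 to 0.28 for Eng, -0.11 to 0.33 for Flt1, -0.0805 to 0.19 for Nos3, -0.19 to 0.32 for Pecam1, -0.19 to 0.35 for Vwf and -0.0930 to 0.30 for the median member difference, which was lowest without Col4a3-/- replicate 1. Col4a3-/-OPN-/- minus wild type ranged from -0.0675 to 0.0772 for Cdh5, -0.10 to 0.00765 for Emcn, -0.19 to 0.00890 for Eng, -0.31 to 0.0787 for Kdr, -0.11 to 0.14 for Nos3 and -0.0215 to 0.0426 for Pecam1. Cdh5 and Kdr kept their direction in Col4a3-/- minus wild type under all 20 settings, from -0.59 to -0.25 and from -1.10 to -0.49, as they did in Col4a3-/-OPN-/- minus Col4a3-/-, from 0.23 to 0.58 and from 0.32 to 0.96. Over all probe sets, the 6 calls of Col4a3-/-OPN-/- minus Col4a3-/- became 2 with array weights or the stricter filter, 0 with the Y-linked covariate, and 0 to 22 with 1 heart left out. For Col4a3-/- minus wild type the 0 calls became 1 under 5 settings and 0 to 6 with 1 heart left out, and for Col4a3-/-OPN-/- minus wild type 1 under array weights or the covariate and 0 to 3 with 1 heart left out. The labels used here do not say whether the replicate numbers pair the hearts. The deviations of same-numbered hearts correlated between -0.19 and 0.23, which cannot settle it, since differently numbered hearts were not compared. With the replicate number as a block the member calls were 0 in all 3 comparisons and the calls over all probe sets in Col4a3-/-OPN-/- minus Col4a3-/- were 0. Averaging a gene's probe sets could not change the members, which have 1 probe set each. No background signal was measured here, and the precision rests on 3 hearts per genotype.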
